A study of Mus musculus with 14 samples.

Results

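The genes described here are 7 core pluripotency factor genes of mouse embryonic stem cells (mESC), Pou5f1, Nanog, Sox2, Sall4, Utf1, Lin28a and Tdgf1, out of 21938 protein-coding genes on chromosomes 1 to 19, X and Y. They were chosen by name for their known role and not by a measured value, although earlier results of these data were known. Around each gene, a window was searched that began 20 kb before the transcription start (TSS) and ended 20 kb after the gene end, and the called regions of 5 antibodies were counted and placed in it. Positions are given in bp from the TSS in the direction of transcription, so that negative values lie upstream.

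Pluripotency rests on a small circuit of transcription factors that bind their own and each other's regulatory DNA. Pou5f1 (Oct4) and Sox2 bind side by side to a composite DNA element, Nanog and Sall4 act with them at many enhancers, and Utf1 is a chromatin-bound factor and a known target of Oct4 and Sox2. Lin28a is an RNA-binding protein that blocks the maturation of let-7 miRNAs, and Tdgf1 (Cripto) is a cell surface co-receptor for Nodal. The remodelling complex esBAF, with the ATPase Smarca4 and the core subunit Smarcb1, is known to bind many of the regions that these factors bind. H3K4me3 marks active promoters, H3K27ac active promoters and enhancers, and H3K27me3, written by the PRC2 enzyme Ezh2, marks silenced genes.

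Binding was measured by ChIP-seq, that is, sequencing of the DNA that an antibody pulls down with its target, in 81K1 cells. The antibodies were against H3K4me3, H3K27ac, H3K27me3, Smarca4 and Ezh2. 81K1 is a clonal mESC line based on OG2 in which a cassette at Rosa26 expresses an shRNA against Smarcb1 when doxycycline is present. Both groups carried this cassette. The control group was left untreated and the knockdown group (kd) received 1 µg/ml doxycycline and was harvested after 72 h. There was 1 library per antibody and condition, so that no spread between replicates exists and no test between conditions was made. The 14 samples include 4 background libraries that entered the data only through the authors' region calling.

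Regions of Smarca4 and Ezh2 are MACS2 peaks called by the authors, and those of the histone marks are broader SICER islands. The 10 lists held between 5364 and 79014 regions. Each peak carries a score and each island a p-value from these tools, and both serve here to order a region within its own list. Rank 1 is the highest score or the lowest p-value, and the percentile is the percent of the list a region stands above. The lists hold no read counts, the depth of each library is unknown here, and a region missing from a list is not a measured loss.

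OG2 cells are known, as background outside the sources used here, to carry a green fluorescent protein reporter driven by Pou5f1 regulatory DNA that lacks the proximal enhancer. Reads from such copies would align to the Pou5f1 locus. Their part in the Pou5f1 values was not tested, and the median widths and percentiles, the density of the composite core and the region totals are therefore also given without Pou5f1.

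The composite element that Oct4 and Sox2 bind was searched in the Smarca4 peaks of the windows by its core, GCATNACAA, on either strand. There were 7 matches in the control peaks, and the same 7 lay in the kd peaks. Matches outside Smarca4 peaks were not searched. The following stretches of 129 bases from GRCm38, read on the strand of transcription (+ for these genes), show the matches at Pou5f1, Nanog, Sox2 and Utf1 with the core, or its reverse complement, in capitals.
Pou5f1, match at -1965, chr17:35503993-35504121: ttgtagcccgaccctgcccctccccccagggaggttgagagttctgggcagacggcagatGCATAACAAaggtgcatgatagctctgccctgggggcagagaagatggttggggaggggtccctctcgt
Pou5f1, match at 8319, chr17:35514277-35514405: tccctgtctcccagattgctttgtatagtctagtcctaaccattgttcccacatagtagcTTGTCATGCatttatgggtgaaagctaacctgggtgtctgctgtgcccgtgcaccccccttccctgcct
Nanog, match at -72, chr6:122707357-122707485: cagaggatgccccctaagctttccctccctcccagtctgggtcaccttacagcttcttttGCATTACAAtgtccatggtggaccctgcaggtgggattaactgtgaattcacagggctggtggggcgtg
Sox2, match at -6547, chr3:34643798-34643926: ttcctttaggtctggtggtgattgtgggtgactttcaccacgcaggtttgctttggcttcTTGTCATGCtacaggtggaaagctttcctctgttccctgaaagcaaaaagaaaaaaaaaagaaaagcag
Utf1, match at 1896, chr7:139945625-139945753: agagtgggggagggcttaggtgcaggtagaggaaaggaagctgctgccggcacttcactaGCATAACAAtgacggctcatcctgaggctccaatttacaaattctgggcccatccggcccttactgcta

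The match at Nanog lay directly before the TSS, and the match at Utf1 lay past the gene end. The matches shown above for Pou5f1 and Sox2 lay outside these genes themselves. That at 8319 bp from the TSS of Pou5f1 lay within the neighbouring gene Tcf19. The other two matches were at 5379 bp from the TSS of Pou5f1, past the gene end, and at 1085 bp in an intron of Nanog. No match was found in the Smarca4 peaks around Sall4, Lin28a or Tdgf1. Per 10 kb of Smarca4 peak, the windows held 0.687 matches in control against 0.264 in all Smarca4 peaks of the list, and 0.685 against 0.164 in kd. Without Pou5f1, which held 3 of the 7 matches, the windows had 0.493 in control and 0.491 in kd. In the central 300 bp of the peaks, the core was found in 1 of 120 peaks of the windows in control, against 0.912% of all peaks, and in 1 of 119 in kd, against 0.520%. The control share was near that of all peaks. With 1 such peak in each list, these shares cannot show whether the windows differed there. Stretches of 250 bases upstream of a TSS were taken from RefSeq (GRCm38.p6) for the 6 genes with an entry. The RefSeq start is the TSS used here for Nanog and Tdgf1, but lies 410 bp upstream of it for Sox2 and 14, 25 and 67 bp downstream of it for Pou5f1, Lin28a and Utf1. Of these 6 stretches only that of Nanog held the core, as did 0.617% of 16522 promoters. Entries matched Pou5f1, Nanog, Sox2, Utf1, Lin28a and Tdgf1.

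The other motifs searched on either strand did not set the windows apart in the same direction in both conditions, apart from the GC box. The octamer ATGCAAAT had 0.392 matches per 10 kb in control against 0.488 in all peaks and 0.489 against 0.342 in kd. The Stat3 element TTCCNGGAA had 0.392 against 0.354 in control and 0.294 against 0.327 in kd. The Esrrb element TCAAGGTCA had 0.294 against 0.384 in control and 0.294 against 0.270 in kd. The GC box GGGCGG was rarer in the windows, with 6.38 matches per 10 kb against 13.4 in control and 6.56 against 16.7 in kd. Apart from the GC box, these counts rest on few matches in 102 kb of peak. The octamer and the composite core can share bases where they overlap.

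At the TSS, the 7 genes carried the marks of active promoters. A Smarca4 peak lay within 1 kb of the TSS of 7 of 7 genes in control, against 62.5% of protein-coding genes, and of 7 of 7 in kd, against 63.5%. An H3K4me3 island was there in 7 of 7 genes in control (56.6% of protein-coding genes) and in 7 of 7 in kd (60.4%). An H3K27ac island was there in 6 of 7 genes in control, against 16.0% of protein-coding genes, and in 7 of 7 in kd, against 30.9%. The gene without H3K27ac within 1 kb of the TSS in control was Lin28a.

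The marks of silencing were called at few of these sites, and a difference from the shares of all protein-coding genes was not tested. Ezh2 peaks were found at the TSS of 0 of 7 genes in control, against 7.13% of protein-coding genes, and of 0 of 7 in kd, against 12.6%. H3K27me3 islands were found at 0 of 7 in control (34.9%) and at 1 of 7 in kd (29.2%), namely at Sall4. The labelled cell type was checked in this way, with active marks at these 7 genes. H3K27me3 lay at regulators of other lineages, as given further on. The 20 other pluripotency genes, also given further on, were mixed, with H3K27me3 at the TSS of 7 in control.

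**Figure D1:**
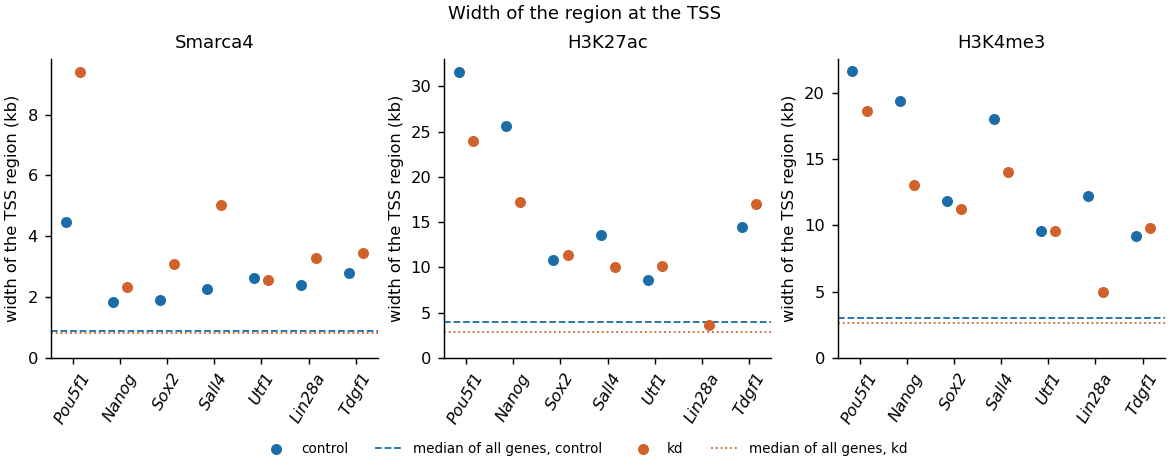
Width in kb (y axis) of the best ranked region within 1 kb of the TSS for each of the 7 genes (x axis), by antibody, with 1 point per library in control (blue) and kd (orange) and lines at the median of all protein-coding genes with a TSS region. The H3K4me3 points lie at 9.2 kb or more in control, above the median of 3000 bp, and the Lin28a point falls from 12200 to 5000 bp in kd. In kd the stretch of the Lin28a control island was called as separate islands.

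The regions at the TSS of the 7 genes were wide. The median H3K4me3 island at these TSS was 12200 bp wide in control and 11200 bp in kd, while those of all genes with an H3K4me3 island at the TSS had 3000 and 2600 bp. In control, 7 of 7 were wider than 6800 bp, the 90th percentile of all genes, and in kd 6 of 7 were wider than 5800 bp, with Lin28a as the exception. H3K27ac islands had a median of 14000 bp over 6 genes in control and 11400 bp over 7 genes in kd, against 4000 and 2800 bp in all genes. Smarca4 peaks had a median of 2402 bp in control and 3288 bp in kd, against 869.5 and 817 bp. Without Pou5f1 the medians of H3K4me3 were 12000 and 10500 bp, those of H3K27ac 13600 and 10800 bp, and those of Smarca4 2329 and 3185.5 bp.

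The ends of the width scale were taken by different genes. Pou5f1 had the widest H3K4me3 island at the TSS, with 21600 bp in control and 18600 bp in kd, followed by Nanog in control, with 19400 bp (13000 bp in kd), and by Sall4 in kd, with 14000 bp (18000 bp in control). The control island of Pou5f1 also covered the TSS of the neighbouring genes Tcf19 and Cchcr1, which in kd lay in a separate island. Tdgf1 had the narrowest in control, with 9200 bp, and Lin28a in kd, with 5000 bp. Between the conditions, 5 of 7 H3K4me3 islands were narrower in kd (Pou5f1, Nanog, Sox2, Sall4 and Lin28a), against 60.8% of genes with an island at the TSS in both lists. At Pou5f1, Nanog, Sall4 and Lin28a, a further kd island overlapped the wide control island. The narrower width there is thus partly a call in separate parts and not a measured loss. The island of Utf1 spanned 9600 bp in both lists, and that of Tdgf1 went from 9200 to 9800 bp.

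**Figure D2:**
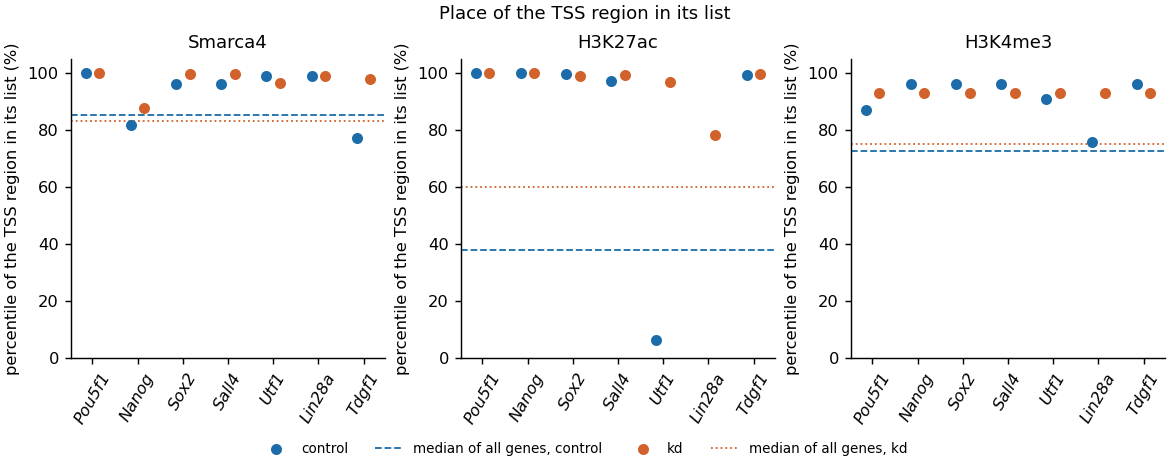
Percentile within its list (y axis) of the best ranked region within 1 kb of the TSS of the 7 genes (x axis), by antibody, with control in blue, kd in orange and lines at the median of all protein-coding genes with a TSS region. The Utf1 point for H3K27ac rises from 6.44 in control to 96.9 in kd, and the H3K4me3 points of kd share 1 value because their p-values are all 0.

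The place of the TSS peak of Smarca4 in its list was higher in kd for 5 of 7 genes, against 47.2% of genes with a peak at the TSS in both lists. Tdgf1 went from the 77.4th to the 98.0th percentile, Nanog from 81.9 to 87.8, Sall4 from 96.1 to 99.8 and Sox2 from 96.2 to 99.8. Lin28a was at 99.1 in both lists, slightly higher in kd. Pou5f1 went from 99.99 to 99.95 and Utf1 from 99.1 to 96.6. The median of the genes was 96.2 in control and 99.1 in kd, and 96.2 and 98.5 without Pou5f1.

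For H3K27ac, the percentile at the TSS was higher in kd for 4 of 6 genes with an island in both lists, against 80.2% of such genes. Utf1 moved furthest, from a p-value of 1.17e-06 in control, at percentile 6.44, to 8.86e-65 in kd, at percentile 96.9. Sall4 went from 97.4 to 99.5 and Tdgf1 from 99.4 to 99.7. Pou5f1 and Nanog were at or above 99.9 in both lists. Sox2 went from 99.6 to 99.01. The p-value of the H3K4me3 island was listed at 0 for 4 of 7 genes in control (Nanog, Sox2, Sall4 and Tdgf1), against 16.4% of genes with an island in both lists, and for 7 of 7 in kd, against 31.0%. Islands at 0 share a mean rank, which puts them at percentile 96.2 in control and 93.1 in kd, because 2000 islands had this value in control and 4619 in kd.

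In the wider windows, which cover 337 kb together, Smarca4 peaks were found around 7 of 7 genes in control (80.0% of protein-coding genes) and 7 of 7 in kd (82.7%). The same count held for H3K27ac in control (60.3%) and in kd (76.3%), and for H3K4me3 in control (78.1%) and in kd (83.4%). H3K27me3 islands lay in the windows of 5 of 7 genes in control, against 65.0%, and of 3 of 7 in kd, against 56.0%. Ezh2 had a peak in 1 of 7 windows in control, against 21.2%, and in 0 of 7 in kd, against 22.5%. These shares of windows are near the background for H3K27me3, and for Smarca4 and H3K4me3 most protein-coding genes have a region as well.

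The windows held 120 Smarca4 peaks in control and 119 in kd, from 6 peaks at Lin28a to 26 at Sall4 in control and from 9 at Lin28a to 25 at Sox2 in kd. Together they covered 101 kb in control and 102 kb in kd, and more bases were covered in kd at 4 of 7 genes (Pou5f1, Nanog, Sox2 and Lin28a), against 42.0% of windows with a peak in either list. H3K27ac islands rose in number from 16 to 36 and in cover from 127 to 157 kb, and H3K4me3 islands from 12 to 19, with 122 and 123 kb covered. H3K27me3 went from 9 islands over 40.4 kb to 6 islands over 25.7 kb, none of them at Pou5f1. Without Pou5f1, Smarca4 had 106 and 103 peaks over 80.6 and 81.5 kb, H3K27ac 15 and 33 islands over 97.5 and 128 kb, and H3K4me3 11 and 16 islands over 101 and 99.4 kb, in control and kd. The whole lists of H3K27ac and H3K4me3 were longer in kd as well, with 51100 against 39091 and 33506 against 26130 islands. That of H3K27me3 was shorter in kd, with 18320 against 22909 islands. With lists of equal length, H3K27ac had 22 islands in the windows in kd.

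**Figure D3:**
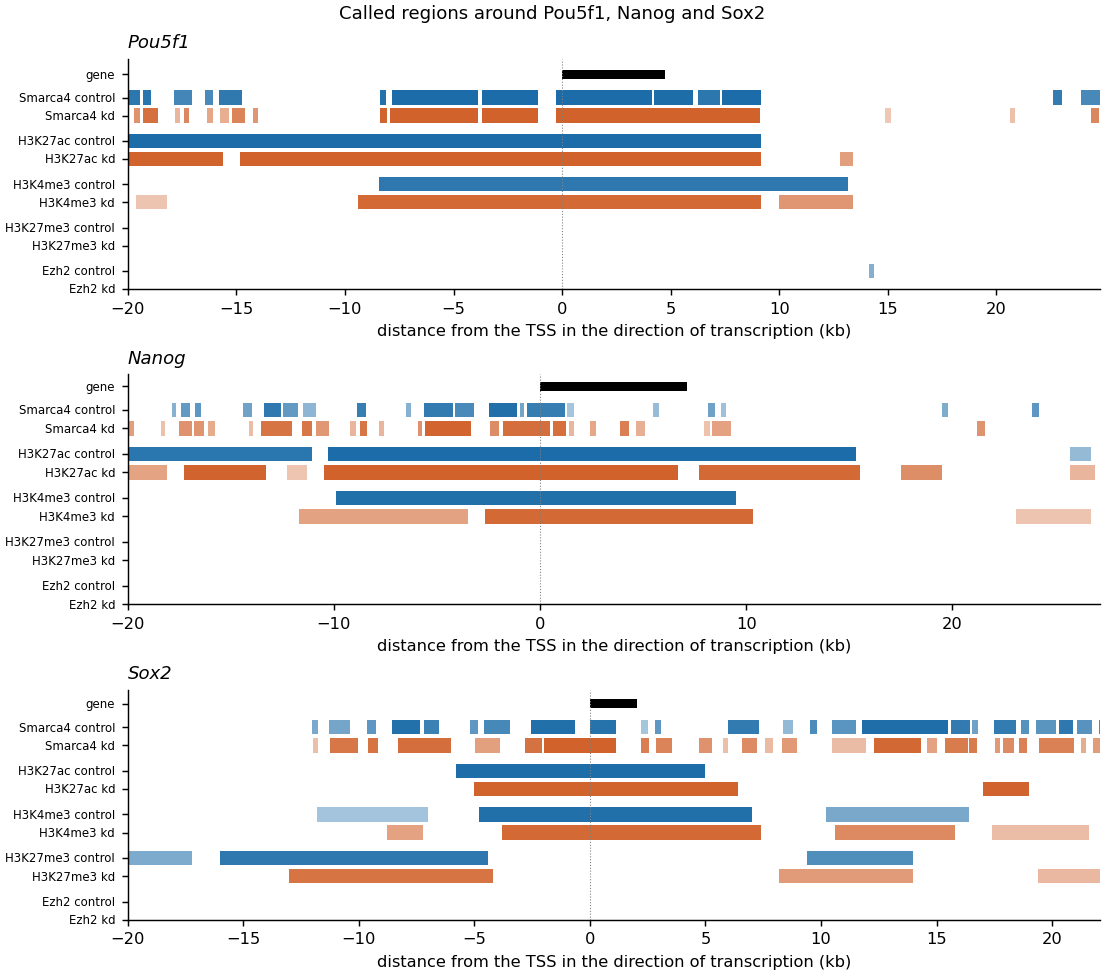
Called regions in the windows of Pou5f1, Nanog and Sox2 (x axis, distance from the TSS in kb; black bar, gene body) for each antibody in control (blue) and kd (orange), with darker bars for regions of higher percentile in their list. Strong Smarca4 and H3K27ac regions of Pou5f1 end near 9.1 kb in both conditions, and H3K27me3 is drawn at Sox2 alone, on both sides of the gene.

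Pou5f1 (ENSMUSG00000024406.16, chr17:35506018-35510772, + strand) held the strongest Smarca4 peak of the control list. This peak, from -3665 to -1109 bp, had a score of 1613 and rank 1 of 79014, and in kd the peak from -3680 to -1092 bp had a score of 1623 and rank 3 of 72339. The stretch from -1109 to -301 bp, between this peak and the peak at the TSS, held no Smarca4 peak in control, and neither did the stretch from -1092 to -294 bp in kd. The peak at the TSS reached from -301 to 4157 bp in control (score 983, rank 11) and was called as a single peak from -294 to 9106 bp in kd (score 983, rank 34). In control this length was covered by several peaks, among them 4243 to 6031 bp (rank 557) and 7376 to 9156 bp (rank 94). Further upstream a peak from -7830 to -3861 bp had rank 47 in control and one from -7928 to -3860 bp had rank 121 in kd.

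The histone marks at Pou5f1 extended over the same stretch. An H3K27ac island ran from -22417 to 9182 bp in control (SICER p-value 1.58e-241, rank 12), and in kd it was called as a part from -21217 to -15618 bp and a part from -14817 to 9182 bp. The H3K4me3 island ran from -8417 to 13182 bp in control and ended at 9182 bp in kd, followed by a separate island from 9983 to 13382 bp. The latter stretch holds the TSS of the neighbouring genes Tcf19, at 10806 bp, and Cchcr1, at 11082 bp. No H3K27me3 island lay in the window. The single Ezh2 peak found around any of the genes was here, in control only, from 14134 to 14353 bp, with a score of 53, and it lay in an exon of the neighbouring gene Cchcr1.

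Sox2 (ENSMUSG00000074637.7, chr3:34650405-34652461, + strand) had H3K27me3 on both sides in control and kd. In control, Smarca4 peaks lay from -2550 to -648 bp (score 314, rank 2969) and from -10 to 1137 bp (score 236, rank 5950.5), and in kd a single peak ran from -1970 to 1112 bp with a score of 707 and rank 148. The H3K27ac island at the TSS ran from -5804 to 4995 bp in control (rank 155) and from -5004 to 6395 bp in kd (rank 506). H3K27me3 islands lay on both sides and not at the TSS. Upstream they ran from -16004 to -4405 bp in control (SICER p-value 1.03e-241) and from -13004 to -4205 bp in kd (SICER p-value 1.81e-95), and downstream from 9396 to 13995 bp and from 8196 to 13995 bp. In kd only, an H3K27ac island from 16996 to 18995 bp had a p-value of 6.35e-85 and percentile 98.5, the highest of the regions in the windows that were called in 1 condition only. Smarca4 peaks were called there in both lists.

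Nanog (ENSMUSG00000012396.12, chr6:122707489-122714633, + strand) had its highest Smarca4 peak upstream of the TSS. In control this was the peak from -2453 to -1122 bp, with a score of 317 and rank 2938, and in kd the peak from -5594 to -3364 bp, with a score of 366 and rank 2048. The latter stretch held a peak from -5619 to -4242 bp with rank 12592.5 in control. The TSS was covered from -613 to 1219 bp in control (score 144) and from -1819 to 499 bp in kd (score 204). H3K27ac formed a single island from -10288 to 15311 bp in control (rank 23), and in kd islands from -10488 to 6711 bp and from 7712 to 15511 bp. The H3K4me3 island from -9888 to 9511 bp in control was likewise called in parts in kd, from -11688 to -3489 bp and from -2688 to 10311 bp. Neither H3K27me3 nor Ezh2 was called in the window, which also holds the processed pseudogenes Gm10420 and Gm10224.

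**Figure D4:**
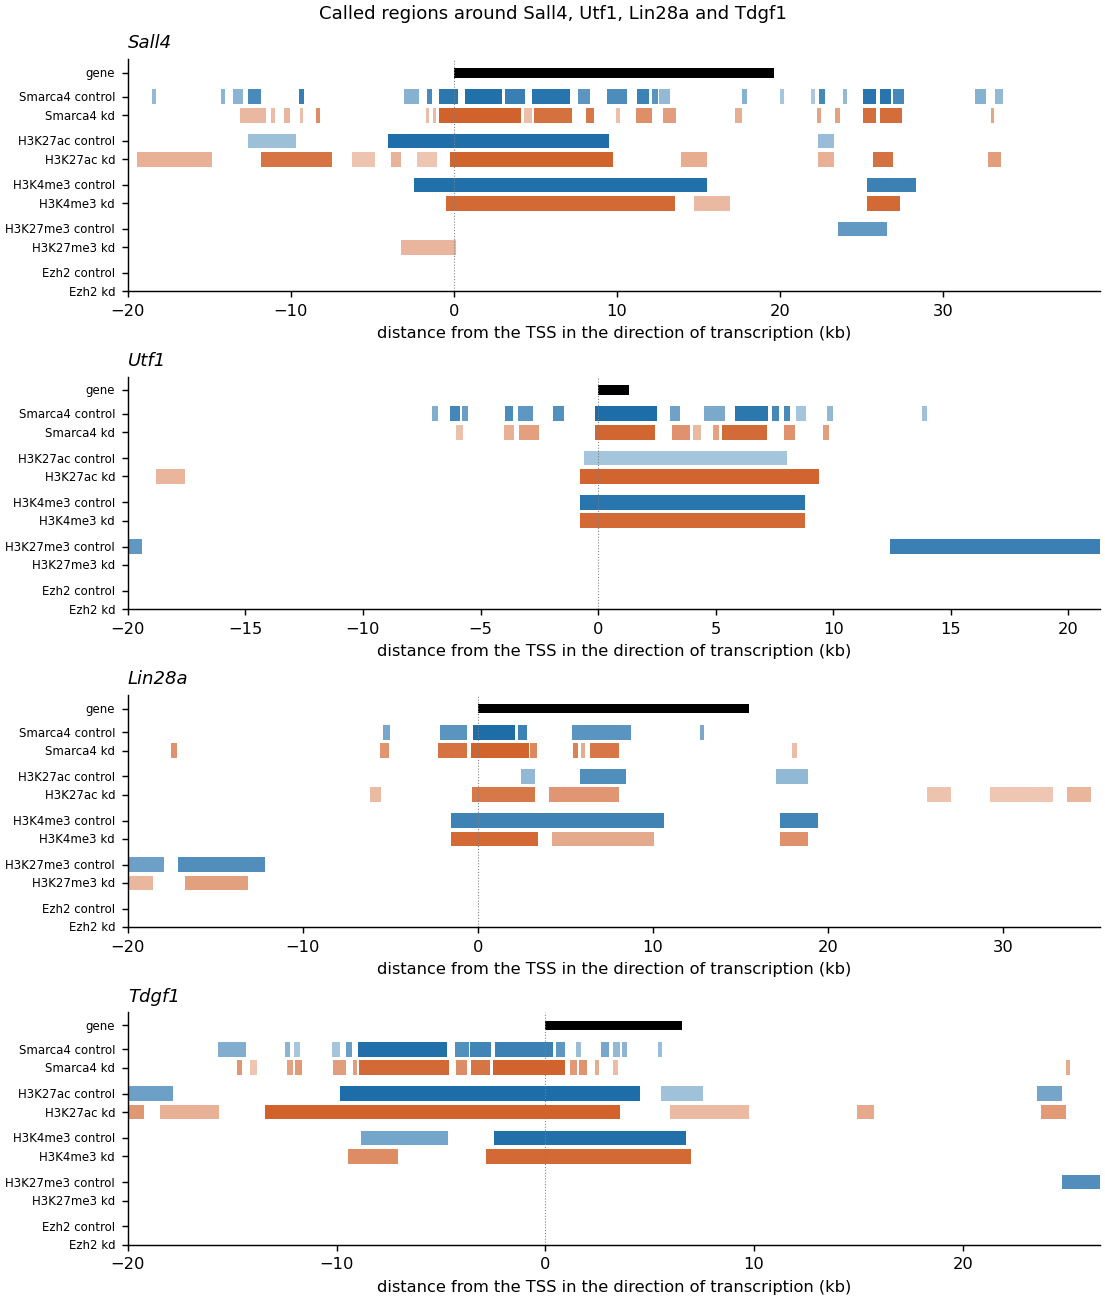
Called regions in the windows of Sall4, Utf1, Lin28a and Tdgf1 (x axis, distance from the TSS in kb; black bar, gene body) for each antibody in control (blue) and kd (orange), with darker bars for regions of higher percentile in their list. H3K27me3 is drawn at the TSS of Sall4 in kd, at Utf1 and Tdgf1 in control alone, and upstream of Lin28a in both.

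Sall4 (ENSMUSG00000027547.17, chr2:168748332-168767943, - strand), a zinc finger transcription factor, had Smarca4 peaks from -916 to 261 bp (score 190, rank 8884) and from 701 to 2956 bp (score 311, rank 3075.5) in control. In kd a single peak from -937 to 4105 bp had a score of 679 and rank 166.5. The H3K27ac island from -4057 to 9542 bp (SICER p-value 3.95e-50) in control became an island from -257 to 9742 bp (SICER p-value 5.23e-128) in kd with smaller islands upstream. Its H3K4me3 island ran from -2457 to 15542 bp in control and from -457 to 13542 bp in kd, with a further kd island from 14743 to 16942 bp. Upstream of the TSS, where the wide islands of both marks ended nearer to it in kd, lay an H3K27me3 island from -3257 to 142 bp in kd only, with a p-value of 1.47e-13 and percentile 17.6. The H3K27me3 island of the control list lay at the TSS of the neighbour Atp9a, from 23543 to 26542 bp, and in kd an H3K27ac island was called there from 25743 to 26942 bp.

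Utf1 (ENSMUSG00000047751.9, chr7:139943789-139945112, + strand) had its Smarca4 peak over the whole gene, from -123 to 2512 bp in control (score 480, rank 680.5) and from -122 to 2434 bp in kd (score 345, rank 2454). The H3K27ac island at the TSS kept nearly the same place, from -588 to 8011 bp in control and from -788 to 9411 bp in kd, while its p-value went from near the end of the control list to near the top of the kd list. H3K4me3 ran from -788 to 8811 bp in both. H3K27me3 islands on both sides of the gene, from -25388 to -19389 bp and from 12412 to 24811 bp, were called in control only, the latter with a p-value of 5.84e-116.

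Lin28a (ENSMUSG00000050966.9, chr4:134003330-134018841, - strand) had a Smarca4 peak at the TSS from -275 to 2126 bp in control (score 476, rank 699) and from -392 to 2895 bp in kd (score 496, rank 630). The best ranked H3K27ac island in control lay inside the gene, from 5841 to 8440 bp (SICER p-value 1.69e-19, percentile 64.4), and was called from 4041 to 8040 bp in kd (SICER p-value 4.15e-13, percentile 48.8). Nearer to the TSS the order was the other way, with an island from 2441 to 3240 bp in control (SICER p-value 8.19e-09) and from -359 to 3240 bp in kd (SICER p-value 8.52e-26). The H3K4me3 island from -1559 to 10640 bp in control was called in kd as islands from -1559 to 3440 bp and from 4241 to 10040 bp. Upstream, H3K27me3 islands lay from -17159 to -12160 bp in control (SICER p-value 4.42e-49) and from -16759 to -13160 bp in kd (SICER p-value 2.54e-19). The TSS of the neighbouring gene Dhdds lies in the window, at 17923 bp, and the only H3K27ac island of the windows that was called in control only lay over it, from 17041 to 18840 bp.

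Tdgf1 (ENSMUSG00000032494.12, chr9:110939603-110946158, - strand) had a Smarca4 peak over the TSS from -2401 to 382 bp in control (score 124, rank 17863.5) and from -2494 to 956 bp in kd (score 400, rank 1481.5). Upstream, a peak from -8990 to -4721 bp in control (score 330, rank 2625.5) and from -8906 to -4628 bp in kd (score 262, rank 5258.5) covered the TSS of Lrrc2 at -5387 bp. The order of these peaks within their lists thus changed between the conditions. H3K27ac joined both sites in a single island, from -9842 to 4557 bp in control (rank 252) and from -13442 to 3557 bp in kd (rank 147). A single H3K27me3 island, from 24758 to 31357 bp, was called in control only and reached past the end of the window.

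Regions called in 1 condition only were fewer among the Smarca4 peaks of the windows than in the whole lists, with 25 of 120 in control against 43.9%, and 31 of 119 in kd against 35.6%. They stood low in their lists, with a median percentile of 27.8 in both and none above 83.9 in control or 70.8 in kd. For H3K27ac, 1 of 16 islands was called in control only (23.5% of the list) and 14 of 36 in kd only (40.1%). With lists of equal length these counts were 4 of 16 and 7 of 22. For H3K4me3 this was 0 of 12 in control (8.15%) and 3 of 19 in kd (29.8%), the 3 lying towards the edges of the windows of Pou5f1, Nanog and Sox2 and no higher than percentile 10.2. For H3K27me3, 5 of 9 islands were called in control only (44.1%) and 2 of 6 in kd only (28.9%), shares near those of the lists. The single Ezh2 peak was called in control only (51.2%), and kd had no Ezh2 peak in the windows to count (49.4% of the kd list was kd-only).

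**Figure D5:**
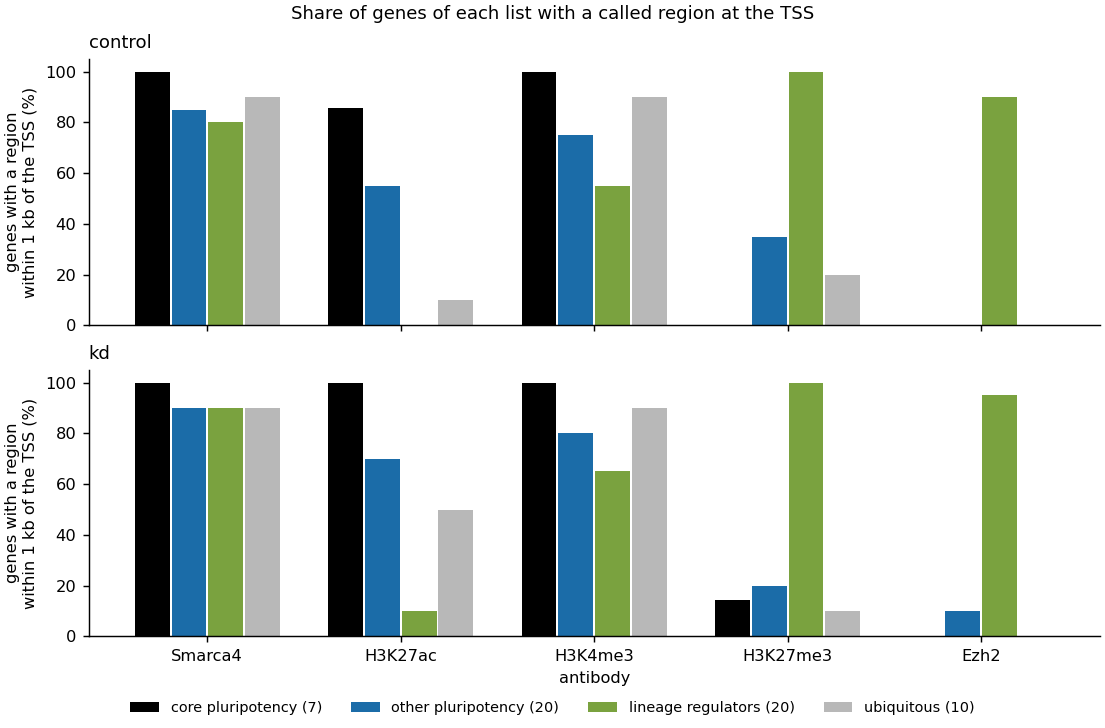
Percent of genes (y axis) with a called region within 1 kb of the TSS for each antibody (x axis) in control (upper panel) and kd (lower panel), as bars for the 7 core genes, 20 other pluripotency genes, 20 lineage regulators and 10 ubiquitous genes. H3K27ac is at 6 of 7 core genes in control and at 0 of 20 lineage regulators, and H3K27me3 is at 20 of 20 lineage regulators in both conditions.

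The same sites were counted at 20 other pluripotency genes. Smarca4 lay at the TSS of 17 of 20 in control and 18 of 20 in kd, H3K4me3 at 15 and 16, and H3K27ac at 11 and 14. H3K27me3 lay at 7 of these 20 in control, where the share of all protein-coding genes was 34.9%, and at 4 in kd, where it was 29.2%. The genes with H3K27me3 at the TSS in control only were Fgf4, Klf4 and Nr5a2. Prdm14, Tbx3, Dppa3 and Esrrb had it there in both lists. At Esrrb, no Smarca4, H3K4me3 or H3K27ac region was called at the TSS in either list. Ezh2 was called at Prdm14 and Tbx3 in kd only. The median width of the H3K4me3 island at the TSS was 6400 bp in control and 7200 bp in kd, below the 12200 and 11200 bp of the core genes. For H3K27ac it was 11200 bp in control and 6500 bp in kd. These medians lay below the 14000 and 11400 bp of the core genes and above the 4000 and 2800 bp of all genes.

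Lineage regulators, such as Pax6, Gata4 and Sox17, stood at the other end for H3K27me3, Ezh2 and H3K27ac. H3K27me3 lay at the TSS of 20 of 20 in both conditions, Ezh2 at 18 in control and 19 in kd, and H3K27ac at 0 and 2. Many of them carried the other regions as well, with Smarca4 at 16 in control and 18 in kd, and H3K4me3 at 11 and 13. Among 10 ubiquitous genes, H3K4me3 lay at 9 in both lists with a median width of 3600 bp, and H3K27ac at 1 in control and 5 in kd. In each of these lists, as at the core genes, H3K27ac was called at the TSS of more genes in kd than in control.

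The protein-coding genes whose best percentiles in the 10 lists came nearest to the median of the 7 genes were Gip and Igf2bp1, whose windows overlap, then Pias3, Nudt17 and Aff4. Their Euclidean distances over the 10 values were 2.93, 2.93, 3.12, 3.17 and 5.24 percentile points. Among the 7 genes, Tdgf1 was at 1.48 and Sall4 at 21.03, while the other genes were between 60.2 (Lin28a) and 94.3 (Utf1). A gene with no region in a window has the value 0 for that list. Utf1 stood apart by its H3K27ac value in control, at percentile 6.44, and Sox2 by its H3K27me3 value in kd, at percentile 81.8, while Pou5f1 and Nanog had no H3K27me3 island in the window. For Utf1, 18.1% of the other protein-coding genes were nearer to the median than Utf1 itself.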

How the data were processed

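Peak and island lists of 10 immunoprecipitated libraries, 1 per antibody and condition, were used as deposited. Groups were taken from the sample labels. Per the labels and methods, the authors trimmed reads (Trim Galore), aligned them to mm10 (Bowtie2), filtered with SAMtools 1.9 and called Smarca4 and Ezh2 peaks with MACS2 and the histone marks with SICER, each library alone. The methods and the sample titles name input as the background. Other labels, the peak names and a figure legend of the authors give IgG, so that the background is uncertain here. Smarca4 and H3K27me3 were immunoprecipitated at a company and the other antibodies in the authors' laboratory, and antibodies can therefore not be told apart from laboratories. Values deposited by the authors are a MACS2 score per peak and a SICER p-value per island. Neither is scaled between libraries. The read depth reached by each library is unknown.

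Between 0 and 61 regions per list lay off chromosomes 1 to 19, X and Y and were left out. Genes and TSS were taken from the gene records of GENCODE M21 (GRCm38), and a region shared between conditions overlapped by at least 1 bp. At a TSS, the best ranked region within 1 kb was used. Scripts ran in Python 3.11.15 with pandas 2.3.3, numpy 2.4.6 and matplotlib 3.10.9, and overlaps were tested on simulated regions. The genes and gene lists were chosen with earlier results of these data known. All 7 genes are named. Regions described are those at the TSS and, per antibody, the best ranked, the widest or those called in 1 condition only; neighbours have their TSS in a window. The 5 genes most alike were taken by distance. Alternatives were a stricter threshold (score of at least 50, p of at most 1e-10 for H3K27ac and 1e-20 for the other marks), lists of equal length, other windows, other overlaps and another TSS. Leaving out Pou5f1 and the search beyond the windows were added after the data were seen. Differential calls of the authors and the 4 background samples were not used here.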

Additional observations from a re-analysis of the deposited data

How the results depend on the processing

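Of 224 values recomputed under an alternative, 173 stayed within 1.5 times or 1 SD of the value reported and 51 did not. Counts of genes with a Smarca4, H3K27ac or H3K4me3 region, in the window or at the TSS, stayed within this range under the alternatives run. The principal transcript of Sall4 starts 742 bp from the TSS used, and this TSS moved no count beyond this range. The causes of the shifts below were not tested, except that narrower windows, higher thresholds and merging leave fewer regions by construction.

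With a 50 kb window the regions were 218 and 208 for Smarca4, 2 and 2 for Ezh2, 23 and 11 for H3K27me3, 26 and 57 for H3K27ac, in control and kd, and 19 for H3K4me3 in control. Ezh2 then had 2 genes with a region in kd and H3K27me3 had 5. With a 10 kb window the regions were 75 for Smarca4 in kd, 3 and 3 for H3K27me3 and 20 for H3K27ac in kd, and H3K27me3 lay at 2 genes in control. In the gene region alone (1 kb upstream to the gene end) they were 31 and 28 for Smarca4, 0 for Ezh2 in control (at 0 genes), 0 and 1 for H3K27me3 (at 0 and 1 genes), 9 and 10 for H3K27ac and 7 and 9 for H3K4me3.

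The stricter threshold left 75 Smarca4 peaks in kd, 2 H3K27me3 islands in kd (at 1 gene, and at the TSS of 0), and 9 and 19 H3K27ac islands. Of regions without an overlap it left 0 for H3K27me3 in kd, 0 and 8 for H3K27ac, and 1 for H3K4me3 in kd. The kd-only island at the TSS of Sall4 is among those it removed. With lists of equal length, H3K27ac had 22 islands in kd, with 4 in control only and 7 in kd only, and H3K4me3 had 0 in kd only. Merging within 1 kb left 41 and 40 Smarca4 peaks. An overlap of 50% gave 42 control-only Smarca4 peaks and 2 control-only H3K4me3 islands. Within 5 kb of the TSS, H3K27me3 was called at 1 gene in control and 2 in kd. Without Pou5f1, Ezh2 had 0 regions over 0 kb at 0 genes in control. Among 10639 genes with windows as long as those described, the background shares stayed within 1.5 times.

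Leaving out a replicate was not possible with 1 library per antibody and condition. No paired analysis was possible because no test was made and each group has 1 sample.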

Other observations

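Beyond the windows, regions at or above the 99th percentile of their list were sought within 150 kb of the genes for Smarca4 and H3K27ac, a search added after the data were seen. Around Sox2, an H3K27ac island lay from 100596 to 117395 bp downstream of the TSS in control (SICER p-value 7.45e-124, rank 91) and from 99996 to 114395 bp in kd (SICER p-value 3.82e-263, rank 64), in a stretch that holds no protein-coding gene at its centre. This island stood higher in its list than the island at the Sox2 TSS in both conditions. No Smarca4 peak past this limit was found in that distance of Sox2.

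Around Nanog, Smarca4 peaks from 56709 to 58975 bp in control (score 732, rank 74) and from 55024 to 58970 bp in kd (score 674, rank 169) lay in the glucose transporter gene Slc2a3. They ranked above the Smarca4 peaks in the window of Nanog in both lists. An H3K27ac island covered them, from 48312 to 71711 bp in control (rank 325) and from 49912 to 68511 bp in kd (rank 151). In kd only, Smarca4 peaks past this limit also lay from 93451 to 95001 bp (rank 567) and, in Foxj2, from 111970 to 113484 bp (rank 410.5). In kd a further H3K27ac island at or above this percentile, from -106288 to -96489 bp, lay in Gdf3, a growth factor gene (rank 401).

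Around Lin28a, the Smarca4 peaks past this limit lay in Hmgn2, from 49618 to 51234 bp in control (rank 391) and from 49146 to 51276 bp in kd (rank 443). An H3K27ac island from 111241 to 124840 bp passed it in kd only (rank 207). No region of either antibody passed it around Pou5f1, Sall4, Utf1 and Tdgf1. Nothing here ties these distant regions to the genes named.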
